A study of Mus musculus with 20 samples.

Results

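A set of 9 genes of retinoid metabolism, of the 55642 genes quantified, was followed in the kidney and liver of mice given JQ1, a small-molecule inhibitor of BET bromodomain proteins. They were Rdh16f2, Rdh16, Rdh7, Rdh11, Sdr9c7, Rbp4, Aldh1a1, Cyp26a1 and Lrat, taken by gene symbol. They were chosen by their place in retinoid handling with results of these libraries already known. Rdh16f2 in particular was selected on its liver value after JQ1, so that its JQ1 comparisons are given as a description without a p-value. All animals were male DBA/2J mice without an engineered allele. In the treatment groups, JQ1 at 50 mg/kg or vehicle was injected intraperitoneally each day for 3 weeks and organs were taken at 10 weeks of age. Recovery animals were left without injections for a further 6 weeks and were 16 weeks old at collection. Each organ had 10 bulk poly(A) RNA-seq libraries, of which 3 were JQ1 treatment, 3 JQ1 recovery, 3 vehicle treatment and 1 vehicle recovery. The 4 vehicle libraries of an organ, which span both ages, served as its control group. A supplementary figure legend of the study gives the vehicle numbers and the recovery time differently, and the sample labels were followed. The supplementary methods give the same vehicle numbers as the labels. Each organ sample is a mixture of cell types, so a lower value cannot be split into fewer cells of a type and less RNA per cell.

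Retinol travels in blood bound to Rbp4, the plasma carrier made mainly by hepatocytes, in a complex with transthyretin. Inside cells Lrat esterifies it for storage, in liver chiefly in hepatic stellate cells. Retinol dehydrogenases oxidise retinol to retinal, Aldh1a enzymes oxidise retinal to retinoic acid, and Cyp26a1 clears retinoic acid. Members of the Rdh16 family are short-chain dehydrogenases, several of which also act on hydroxysteroids. Their genes lie next to each other in the mouse genome, and the cluster also holds Hsd17b6, a dehydrogenase of androgen metabolism.

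In the reference annotation (GENCODE M21, build GRCm38) Rdh16f2 has 4 exons on chromosome 10, on the plus strand between positions 127866474 and 127877317. RefSeq lists the protein-coding genes of the cluster in the order Rdh1, Rdh9, Rdh16, Rdh19, Rdh16f2, Rdh7, Sdr9c7 and Hsd17b6. Rdh16f2 and its neighbours are close in sequence. The Rdh16f2 coding sequence was identical to that of Rdh19 at 92.1% of aligned bases, to Rdh9 at 91.9%, to Rdh16 at 91.8% and to Rdh7 at 84.4%. It was identical to Hsd17b6 at 72.4% and to Sdr9c7 at 65.4%. Of the 1235 stretches of 31 bases in the Rdh16f2 transcript, 308 (24.9%) also occur in another gene, mostly of the cluster. For Rdh16 the share was 24.0% and for Rdh7 20.6%, whereas Sdr9c7 shared none. For Rdh9 it was 94.5%, nearly all with Rdh16f1, so that reads of these neighbours can hardly be told apart. The read counts assigned to Rdh16f2 were whole numbers, within 0.0055 reads, in 10 of 10 liver and 10 of 10 kidney libraries, all on 1 transcript. Rdh16 counts were whole in 1 of 10 liver libraries and 0 of 10 kidney libraries, so part of its reads was divided between genes and its values are less certain.

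Promoters (250 bases before to 50 after the start site, from RefSeq on GRCm38.p6) are shown for some of the cluster genes. They are Rdh16f2, Sdr9c7, Hsd17b6 and Rdh9, whose liver levels after JQ1 lay below every vehicle library, and Rdh7, which lies among them and whose levels did not. Of those below vehicle only Rdh16f2, selected on this value, passed the edgeR test with all libraries. The share of all genes that separate in this way is not given, so nothing is read from their number. Rdh7 has 2 entries, both shown. Hsd17b6 also has 2, and the second, with CCAAT matches alone, is not shown. Capitals mark matches, on either strand, to 6 motifs searched. These were TATAAA (the TATA box), CCAAT (the box of that name), AGGTCA (the hexamer of nuclear receptors), TTCNNNGAA (STAT factors), CACGTG (an E-box) and AGAACA (the hexamer of steroid receptors). The Rdh16f2 window is chr10:127866226-127866525 (plus strand), that of Sdr9c7 is chr10:127898285-127898584 (plus strand), those of Rdh7 are chr10:127889198-127889497 and chr10:127888684-127888983 (both minus strand), that of Rdh9 is chr10:127776155-127776454 (plus strand) and that of Hsd17b6 is chr10:128007562-128007861 (minus strand).
Rdh16f2: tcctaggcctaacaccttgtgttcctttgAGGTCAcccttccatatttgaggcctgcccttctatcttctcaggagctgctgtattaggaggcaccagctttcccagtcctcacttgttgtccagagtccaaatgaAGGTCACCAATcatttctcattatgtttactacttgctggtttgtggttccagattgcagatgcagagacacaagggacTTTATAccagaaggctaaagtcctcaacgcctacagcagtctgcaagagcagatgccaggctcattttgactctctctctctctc
Rdh7, entry 1: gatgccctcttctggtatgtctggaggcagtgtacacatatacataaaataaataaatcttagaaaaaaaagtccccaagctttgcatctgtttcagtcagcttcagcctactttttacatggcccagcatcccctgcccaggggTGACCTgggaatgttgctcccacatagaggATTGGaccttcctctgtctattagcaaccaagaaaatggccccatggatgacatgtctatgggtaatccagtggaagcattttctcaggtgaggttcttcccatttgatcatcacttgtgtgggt
Rdh7, entry 2: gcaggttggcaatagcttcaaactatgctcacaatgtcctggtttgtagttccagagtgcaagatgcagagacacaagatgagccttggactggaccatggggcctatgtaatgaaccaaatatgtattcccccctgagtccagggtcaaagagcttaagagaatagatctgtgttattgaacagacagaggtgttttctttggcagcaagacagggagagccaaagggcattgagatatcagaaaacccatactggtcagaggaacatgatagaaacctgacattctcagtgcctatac
Rdh9: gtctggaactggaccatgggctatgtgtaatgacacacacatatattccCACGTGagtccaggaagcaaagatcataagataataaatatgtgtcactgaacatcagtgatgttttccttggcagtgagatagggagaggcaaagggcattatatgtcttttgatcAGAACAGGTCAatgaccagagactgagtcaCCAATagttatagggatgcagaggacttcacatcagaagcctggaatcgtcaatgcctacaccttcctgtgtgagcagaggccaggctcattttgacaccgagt
Sdr9c7: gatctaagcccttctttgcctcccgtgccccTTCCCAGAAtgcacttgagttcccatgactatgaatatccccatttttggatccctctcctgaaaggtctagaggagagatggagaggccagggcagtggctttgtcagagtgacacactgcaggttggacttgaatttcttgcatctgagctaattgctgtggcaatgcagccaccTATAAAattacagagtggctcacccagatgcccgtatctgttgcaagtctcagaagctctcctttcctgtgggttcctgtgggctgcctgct
Hsd17b6: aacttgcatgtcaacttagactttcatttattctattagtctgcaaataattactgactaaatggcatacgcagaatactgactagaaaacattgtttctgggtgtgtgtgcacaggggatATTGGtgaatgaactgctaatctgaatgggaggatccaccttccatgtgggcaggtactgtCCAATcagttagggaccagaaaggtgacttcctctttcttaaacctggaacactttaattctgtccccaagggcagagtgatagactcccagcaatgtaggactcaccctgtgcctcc

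The Rdh16f2 window held 2 AGGTCA matches, the nearer of which ran directly into a CCAAT match, and a TATAAA match on the opposite strand. Of 32851 RefSeq promoters of the same length, 16.3% held AGGTCA, 37.4% CCAAT and 13.6% TATAAA. Sdr9c7 held TATAAA and TTCNNNGAA, the latter present in 8.3% of promoters, and Hsd17b6 held CCAAT on each strand. Rdh9 held CCAAT and AGGTCA, as Rdh16f2 did, besides CACGTG (7.15% of promoters) and AGAACA (19.0%), which overlapped its AGGTCA. In Rdh7 entry 1 held AGGTCA and CCAAT on the opposite strand and entry 2 had no match. None of the 6 motifs was found in all of Rdh16f2, Sdr9c7, Hsd17b6 and Rdh9, which are not read as a group here. The AGGTCA and CCAAT of Rdh16f2 were also found in Rdh7, and its AGGTCA and TATAAA in Rdh16. Rdh16, whose window is not shown, lay above vehicle in treated liver, a difference that did not pass. It also held both motifs of Sdr9c7, and the hexamers of nuclear receptors and of steroid receptors found in Rdh9. A match in these letters is a description of the sequence only.

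Libraries held 11968500 to 17529910 assigned reads in liver and 13952510 to 26895318 in kidney. Levels are given as CPM, the reads of a gene scaled to the library total, after trimmed-mean (TMM) scaling within an organ. Where genes are compared with each other they are given as TPM, which also allows for transcript length. Kidney markers (12 genes of tubule and podocyte, including Kap and Slc34a1) summed to 1.86 to 5.28 CPM in the vehicle and JQ1 treatment libraries of liver. They summed to 25.1, 4919 and 2772 CPM in liver JQ1 recovery libraries 1, 2 and 3. In libraries 2 and 3 all 12 markers had reads, at a median of 41.4% and 12.5% of their kidney level, against 0.0362% in library 1. Liver recovery values of the members are therefore shown by library, and their differences also without libraries 2 and 3. The 8 hepatocyte markers together reached at most 49.3 CPM in any kidney library, against at least 67820 CPM in vehicle liver. Markers of the labelled organ were detected in every library.

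Rdh16f2 was the gene that differed most clearly in liver. The 4 vehicle libraries stood at 53.7 CPM (recovery age) and 64.5, 53.4 and 47.8 CPM (treatment age). The 3 JQ1 treatment libraries stood at 17.2, 17.5 and 17.5 CPM. All 3 treated livers thus lay close together and below every control. The mean was 17.4 ± 0.141 CPM (SD, n = 3) after JQ1 and 54.8 ± 6.98 CPM (SD, n = 4) in vehicle, 31.7% of the control level. On the log2 scale the difference was -1.66 ± 0.13 (SE), and by p-value it ranked 1 of 14559 genes tested, which is the value it was selected on. These values rested on 205 to 238 reads per treated library and 738 to 927 per vehicle library. The 8 hepatocyte markers summed to 79730 to 92410 CPM after JQ1 and 67820 to 72510 CPM in vehicle. Of the 8, 6 were higher and 2 lower after JQ1 and 0 passed, and the part of hepatocyte content in the Rdh16f2 value was not tested. The 10 pericentral markers summed to 2004 to 2507 CPM after JQ1 and 3080 to 3377 CPM in vehicle. Of the 10, 9 were lower and 1 higher, and 1 passed (Lect2, lower), beside 0.495% of all genes called. The 8 periportal markers summed to 4053 to 4251 CPM after JQ1 and 3314 to 3646 CPM in vehicle. Of these, 6 were higher and 2 lower, and 0 passed. The part of zonal makeup in the Rdh16f2 value was not tested.

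After 6 weeks without JQ1, liver Rdh16f2 stood at 33.7, 25.7 and 33.4 CPM in JQ1 recovery libraries 1, 2 and 3. Each value lay above the 3 treated livers and below the 4 vehicle livers, so the 3 groups did not overlap. The recovery mean was 30.9 ± 4.51 CPM (SD, n = 3), 56.4% of the vehicle mean. Its log2 difference was -0.83 ± 0.13 (SE) from vehicle, and that of treatment from recovery was -0.83 ± 0.14. Library 1, which held almost no kidney marker RNA, was at 61.4% of the vehicle mean. Kidney recovery libraries held 26.4 to 38.2 CPM of Rdh16f2, close to the liver recovery values. With the kidney share taken off in a calculation added after seeing the data, given for the other members further on, libraries 2 and 3 stood at 30.99 and 35.41 CPM per total reads, against 45.4 to 61.0 CPM in vehicle on that scale. Without both libraries the log2 difference from vehicle was -0.71, with only 1 recovery library left. The only vehicle library of the recovery age, at 53.7 CPM, lay within the range of the 3 younger ones.

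In kidney, Rdh16f2 did not separate the groups. Vehicle libraries stood at 35.0 CPM (recovery age) and 42.2, 40.4 and 76.0 CPM (treatment age). JQ1 treatment libraries stood at 30.2, 44.4 and 41.4 CPM and JQ1 recovery libraries at 26.4, 38.2 and 34.0 CPM. Both JQ1 groups overlapped the control range, whose top was set by 1 library. The log2 difference from vehicle was -0.32 ± 0.30 (SE) after treatment and -0.56 ± 0.30 after recovery. Compared between organs in 1 model, the JQ1 effect on Rdh16f2 was 1.34 ± 0.31 higher (less negative) in kidney than in liver on the log2 scale. Over 25 alternatives it ran from 1.21 to 1.65, the highest without the high kidney control, vehicle treatment library 3. The liver side of this contrast is the value that chose the gene, so no p is given.

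Sdr9c7, the neighbour on the far side of Rdh7 and a dehydrogenase known for its part in the skin barrier lipids, was also lower in treated liver. It stood at 17.1, 21.6 and 19.8 CPM after JQ1 and at 36.6, 42.5, 35.9 and 40.8 CPM in vehicle. No treated library reached the control range, and the mean was 50.1% of vehicle. The log2 difference was -0.998 ± 0.214 (SE), with an adjusted p of 0.0756 (edgeR quasi-likelihood test, Benjamini-Hochberg over all genes), which missed the threshold of 0.05. It passed without liver JQ1 recovery library 2, which enters only through the shared spread (adjusted p = 7.81e-05), and over all alternatives its adjusted p ran from 3.77e-05 to 0.329. Without liver recovery libraries 2 and 3 the log2 difference was -1.01 (adjusted p = 3.77e-05). At recovery Sdr9c7 stood at 44.3, 20.7 and 39.7 CPM. Library 1 was above the control range, library 3 within it, and library 2, with the most kidney RNA, was at 53.2% of the vehicle mean. In kidney Sdr9c7 had at most 8 reads in any library and was not tested.

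Hsd17b6, which closes the cluster, gave a similar picture in liver. It stood at 59.1, 70.4 and 61.0 CPM after JQ1, against 137 to 175 CPM in vehicle, without overlap. The log2 difference was -1.27 ± 0.40 (SE) and did not pass (adjusted p = 0.345). Without liver recovery libraries 2 and 3, left out after seeing the data, it was -1.28 ± 0.10 and passed (adjusted p = 3.67e-07). Its recovery libraries stood at 173.5, 45.3 and 157.7 CPM, library 2 again being the low one. Rdh9, which shares 94.5% of its 31-base stretches with other genes, stood at 7.03, 8.30 and 9.39 CPM after JQ1 and at 9.80 to 18.7 CPM in vehicle, also without overlap. Its log2 difference of -0.69 ± 0.33 (SE) did not pass either (adjusted p = 0.553), and its recovery libraries, at 5.40 to 15.2 CPM, overlapped both groups.

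Rdh7 and Rdh16, on either side of Rdh16f2, did not share this. Rdh7, a hepatic retinol and sterol dehydrogenase and by far the most abundant of the cluster in liver, stood at 670.2, 645.6 and 707.5 CPM after JQ1. Vehicle libraries ran from 662.4 to 706.1 CPM, so the groups overlapped, and the log2 difference was -0.01 ± 0.14 (SE). Its 95% interval ran from -0.28 to 0.26. Intervals here are approximate: they take the SE under a normal distribution and are narrower than the edgeR test allows. Rdh16, an oxidative retinol dehydrogenase, stood at 74.1, 90.2 and 95.6 CPM after JQ1, above the 55.2 to 72.2 CPM of vehicle. The log2 difference of 0.41 ± 0.17 (SE) did not pass (adjusted p = 0.432). Rdh16f1 and Rdh19 were listed without reads in liver, although most of the Rdh9 stretches also occur in Rdh16f1, and Rdh1 stayed at or below 0.507 CPM. Reads summed over the whole cluster differed by -0.21 ± 0.15 (SE, log2) from vehicle, with an adjusted p of 0.739.

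Genes just outside the cluster were also listed, by position. Of the 3 protein-coding genes on each side, Tac2 had almost no reads in liver, Zbtb39 differed by 0.39 ± 0.40 (SE, log2) and Gpr182 by -0.50 ± 0.40. Prim1, a DNA primase subunit, differed by 1.09 ± 0.31, Naca by 0.07 ± 0.09 and Ptges3 by -0.05 ± 0.09. None of the 5 genes tested passed, Prim1 having the smallest adjusted p (0.178). Prim1 also separated without overlap, lying above vehicle. It stood at 2.99 to 3.77 CPM after JQ1, 2.56 to 2.83 CPM at recovery and 0.941 to 2.13 CPM in vehicle, on 13 to 52 reads per library. After treatment Zbtb39, Gpr182, Naca and Ptges3 overlapped vehicle.

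**Figure D1:**
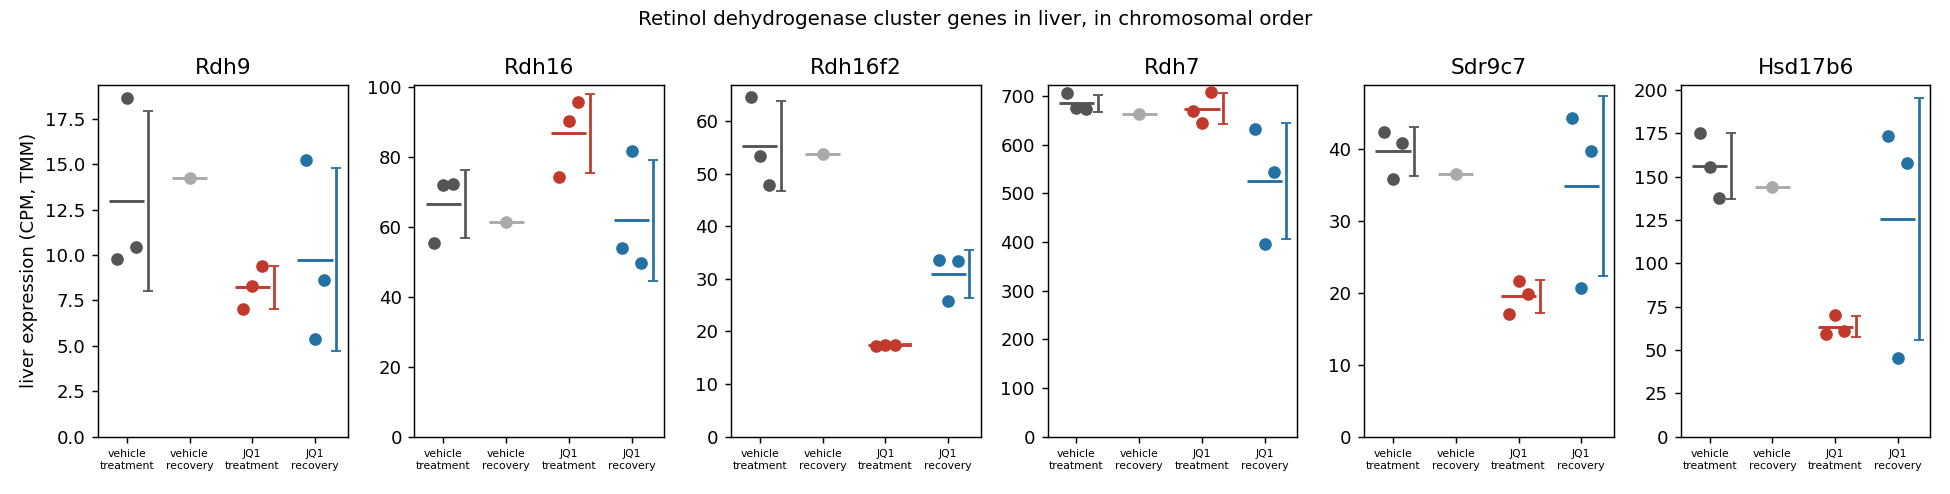
Liver CPM (TMM, linear axes starting at 0) of 6 genes of the chromosome 10 cluster in chromosomal order. Points are libraries, lines group means and bars ± 1 SD of 3 libraries. Rdh9, Rdh16f2, Sdr9c7 and Hsd17b6 are lower in the 3 JQ1 treatment libraries than in every vehicle library, Rdh7 overlaps and Rdh16 lies above, and 1 recovery library is low for Sdr9c7 and Hsd17b6. Of the lower genes only Rdh16f2, selected on this value, passed the edgeR test with all libraries.

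Rdh16 was the member that passed the test in kidney. Treated kidneys stood at 143.7, 156.6 and 162.9 CPM and vehicle kidneys at 116.4, 99.2, 111.3 and 142.0 CPM. The treated range lay just above that of vehicle. The log2 difference was 0.40 ± 0.09 (SE), with an adjusted p of 0.0208 (edgeR). Recovery kidneys stood at 121.6, 118.9 and 124.4 CPM, inside the control range. Treatment exceeded recovery by 0.34 ± 0.10 (SE, log2; edgeR adjusted p = 0.045). The calls were not firm: leaving out JQ1 treatment library 2 or 3, or vehicle treatment library 1 or 2, raised the adjusted p against vehicle to between 0.0535 and 0.107. Against recovery, 7 of the 10 single libraries left out ended the call (highest adjusted p = 0.147), among them each of the 3 JQ1 recovery libraries.

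Counted over the 9 members, 1 of the 7 tested in kidney passed between treatment and vehicle (Rdh16), beside 4.13% of all genes. In liver 1 of 9 passed (Rdh16f2), beside 0.495% of all genes. Between recovery and vehicle none of 7 passed in kidney by edgeR, by DESeq2 or at an unadjusted p under 0.05, where 0.00583% of all genes were called. In liver 1 of 9 passed in that comparison (Rdh16f2), beside 0.0343%. Between treatment and recovery 1 of 7 passed in kidney (Rdh16), beside 7.31%, and 2 of 9 in liver (Rdh16f2 and Aldh1a1), beside 2.29%. No member passed the test of an organ difference in the treatment effect, where 0.169% of all genes did. At an unadjusted p under 0.05, and by DESeq2, the only member there was Rdh16f2. Nothing is read from counts or calls that hold Rdh16f2, since it was selected on its liver value after JQ1. Its recovery call in liver ended when any 1 of 9 of the 10 liver libraries was left out, all but JQ1 recovery library 1, with log2 differences from -0.90 to -0.72. Its call between treatment and recovery ended without JQ1 recovery library 3 or any of the 3 treated livers.

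Of the carriers and storage genes, Rbp4 was abundant in liver. It stood at 2089, 2342 and 2647 CPM after JQ1, and at 1888, 1895, 2002 and 1749 CPM in vehicle. The treated livers lay above every control, but the log2 difference of 0.32 ± 0.20 (SE) did not pass (adjusted p = 0.671). Recovery libraries stood at 1639, 808.4 and 1529 CPM, all below the controls and lowest in library 2, with a difference of -0.51 ± 0.20 (SE, adjusted p = 0.224), or -0.21 ± 0.13 without libraries 2 and 3. Treatment differed from recovery by 0.83 ± 0.21 (SE), with an adjusted p of 0.0562, and 3 of 17 alternatives called it. Without libraries 2 and 3 that difference was 0.52 (adjusted p = 0.102). Lrat stood at 16.4, 6.61 and 12.9 CPM in recovery libraries 1, 2 and 3, at 9.89 to 17.3 CPM after JQ1 and at 6.20 to 17.0 CPM in vehicle liver. These ranges overlapped, and the treatment difference was 0.17 with a 95% interval from -0.57 to 0.90.

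In kidney both genes were low. Rbp4 stood at 6.19, 1.35 and 3.59 CPM after JQ1, at 1.63, 1.28 and 1.37 CPM at recovery and at 1.12 to 4.28 CPM in vehicle. The groups overlapped, and no comparison passed. Kidney Rbp4 moved with fat: the 8 adipocyte markers summed to 771.1, 40.7 and 181.4 CPM in the same 3 treated kidneys, to 47.5 to 55.4 CPM at recovery and to 69.6 to 206.5 CPM in vehicle. Over the 10 kidney libraries, which also share their dissection, the correlation of Rbp4 with the mean adipocyte marker was 0.89 on the log2 scale, given as a description. The part of adipose tissue in kidney Rbp4 was not tested. Kidney Lrat stood at 0.209, 1.12 and 1.18 CPM after JQ1, below the 1.47 to 2.18 CPM of vehicle, on 3 to 30 reads per library. Its log2 difference of -1.04 ± 0.44 (SE) did not pass (adjusted p = 0.229).

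Of the enzymes acting on retinal and retinoic acid, liver Aldh1a1 (retinal to retinoic acid) stood at 973.3, 1097 and 1352 CPM after JQ1 and at 789.7 to 997.0 CPM in vehicle. The groups overlapped, and the difference of 0.37 ± 0.19 (SE, log2) did not pass (adjusted p = 0.564). Recovery libraries 1, 2 and 3 stood at 801.1, 432.1 and 682.1 CPM. Treatment differed from recovery by 0.84 ± 0.20 (SE), with an adjusted p of 0.0442 (edgeR). This call was lost in a fit without liver recovery libraries 2 and 3, where the difference was 0.50 (adjusted p = 0.242). It was also lost without recovery library 3, without any 1 of the 3 treated libraries or of the 4 vehicle libraries (0.0593 to 0.190). Cyp26a1, which clears retinoic acid and is itself induced by it, stood at 17.8, 24.7 and 20.5 CPM after JQ1, at 42.7, 14.2 and 34.5 CPM at recovery and at 18.4 to 45.3 CPM in vehicle. All 3 groups overlapped, and the treatment difference was -0.55 with a 95% interval from -1.36 to 0.27. Rdh11, which mainly reduces retinal to retinol, stood at 114 to 135 CPM after JQ1 and at 101, 49.7 and 74.3 CPM in recovery libraries 1, 2 and 3. Rdh11 in vehicle stood at 74.8 CPM (recovery age) and at 123.1, 113.9 and 121.3 CPM (treatment age), and the part of age was not tested. None of its liver comparisons passed by edgeR. Treatment and recovery did not overlap, with a difference of 0.73 ± 0.25 (SE, log2, adjusted p = 0.140). DESeq2 called that difference (adjusted p = 0.0292), as did edgeR without recovery library 1 (0.0112), a fit that also called recovery below vehicle (0.0279). Without libraries 2 and 3 it was 0.29 (adjusted p = 0.767).

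In kidney both JQ1 groups overlapped vehicle for Aldh1a1 and Rdh11. Aldh1a1 ran from 24.1 to 33.6 CPM after JQ1, from 22.6 to 27.6 CPM at recovery and from 19.8 to 37.3 CPM in vehicle. Rdh11 ran from 16.3 to 20.7, from 13.3 to 15.1 and from 11.8 to 19.7 CPM in the same order. Treatment thus lay above recovery for Rdh11, a difference that edgeR did not call. The vehicle kidney of recovery age stood at 11.8 CPM and those of treatment age at 18.1 to 19.7 CPM. Vehicle thus differed by age in the same direction, on 1 library of recovery age, and the part of age was not tested. Rdh7 had at most 16 reads and Cyp26a1 at most 13 reads in any kidney library. None of them passed a test of treatment or recovery against vehicle where it was tested.

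**Figure D2:**
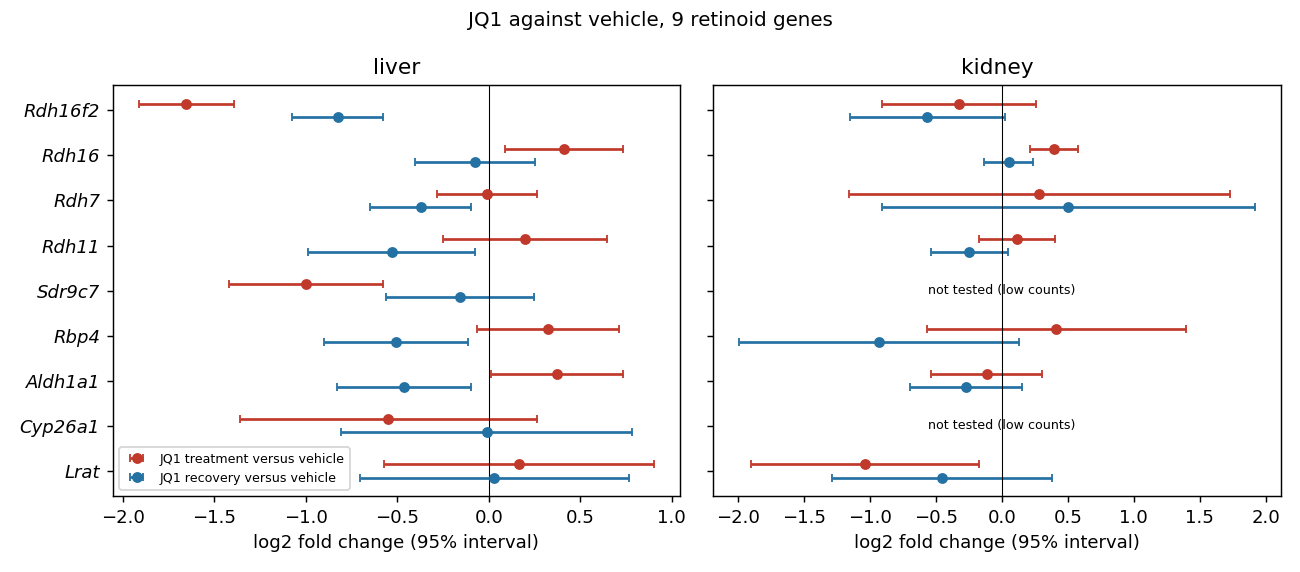
Log2 fold change of JQ1 treatment (red) and JQ1 recovery (blue) against the 4 vehicle libraries for the 9 genes in liver (left) and kidney (right), with bars of the 95% interval from the edgeR fit. Rdh16f2 lies at -1.66 and -0.83 in liver, Sdr9c7 at -0.998 after treatment, and in kidney Rdh16 lies at 0.40 after treatment, whereas Sdr9c7 and Cyp26a1 had too few kidney reads to be tested.

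Seen library by library, most members were lowest in liver recovery library 2, which held the most kidney RNA. There Rbp4 was at 42.9%, Rdh11 at 45.9%, Cyp26a1 at 46.3%, Aldh1a1 at 49.1%, Sdr9c7 at 53.2% and Rdh7 at 58.4% of the vehicle mean. In library 1 the same 6 genes were at 87.0%, 93.2%, 138.9%, 91.0%, 113.9% and 93.1%. Rdh16, whose level in vehicle kidney is not below that in vehicle liver, was at 125.5% in library 2 and 82.8% in library 1. Rdh16f2 was at 46.9% in library 2 and at 61.4% in library 1. In library 1 Rdh16, Rdh7 and Rbp4 also lay below the vehicle range, each by far less than Rdh16f2.

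The same calculation that took the kidney share off Rdh16f2, with 41.4% in library 2 and 12.5% in library 3, was made for every member per total reads. In library 2 it put Rbp4 (from 1001 to 1708 CPM), Aldh1a1 (from 535 to 896 CPM), Rdh11 and Cyp26a1 within the vehicle range, where Lrat already lay. It put Rdh7 (from 491.5 to 839 CPM, against 639.9 to 687 CPM in vehicle) and Sdr9c7 (from 25.7 to 43.8 CPM) above it. Rdh16 was above vehicle before and after (from 101.2 to 86.5 CPM, against 52.3 to 73.1 CPM), and Rdh16f2 was left below. Hsd17b6 stayed below at 95.7 CPM. In library 3, after the calculation, Sdr9c7 (47.7 CPM) lay above vehicle, as it had before, Rdh16 and Rdh16f2 below, and the other 6 within. Rdh16f2 was thus the member below vehicle in all 3 libraries, and Sdr9c7 the one above in all 3. A share set by the median of 12 markers that differ widely is a coarse estimate. With libraries 2 and 3 left out, the recovery difference from vehicle ran, leaving aside Rdh16f2, from -0.28 (Rdh16) to 0.48 (Lrat) over the other 8 members and none passed. In the fit with all libraries they ran from -0.53 (Rdh11) to 0.03 (Lrat).

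**Figure D3:**
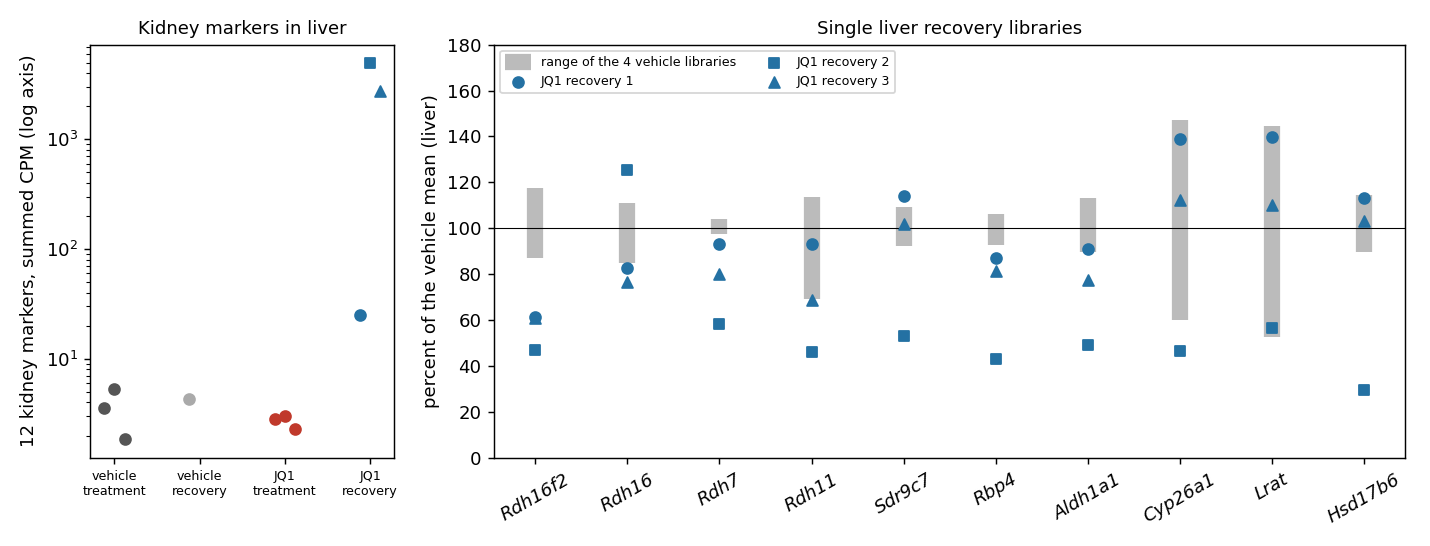
Left, summed CPM of 12 kidney markers (log axis) in each liver library. Right, the 9 genes and Hsd17b6 in each liver JQ1 recovery library as percent of the liver vehicle mean, with grey bars for the range of the 4 vehicle libraries. Library 2, with 4919 CPM of kidney markers, is lowest for most genes, whereas Rdh16f2 lies below the grey bar in all 3 libraries (46.9 to 61.4%).

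In vehicle liver the order of the members by TPM was Rbp4 (1172 ± 159, SD, n = 4), Rdh7 (219 ± 17.5), Aldh1a1 (192 ± 19.9), Rdh16f2 (24.9 ± 3.55), Rdh11 (16.5 ± 3.52), Rdh16 (10.2 ± 1.78), Cyp26a1 (9.02 ± 2.99), Sdr9c7 (6.81 ± 0.344) and Lrat (1.05 ± 0.359). The ranges of Rdh7 and Aldh1a1 overlapped, as did those of Rdh11, Rdh16 and Cyp26a1 in turn, and those of Cyp26a1 and Sdr9c7. Rdh16f2, at 20.1 to 28.0 TPM, overlapped none. In vehicle kidney Rdh16f2 (35.6 ± 14.0 TPM) and Rdh16 (29.5 ± 4.72 TPM) came first, with overlapping ranges. Aldh1a1 (10.6 ± 3.02), Rdh11 (4.21 ± 0.876) and Rbp4 (2.60 ± 1.46) followed, the latter pair overlapping, and the other 4 did not exceed 0.436 TPM in any vehicle library.

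Between organs, Rbp4, Rdh7, Sdr9c7, Cyp26a1, Aldh1a1, Lrat and Rdh11 were lower in vehicle kidney than in vehicle liver, by 3.46 (Rdh11) to 11.5 (Rdh7) on the log2 scale of a joint fit. With Rdh16f2, 8 of 9 members passed, beside 61.8% of all genes. Sdr9c7 and Cyp26a1 entered that fit only through liver and had to differ. For Rdh16f2 the direction rested on the scale. The joint TMM fit put kidney lower, at -0.96 ± 0.20 (SE, edgeR adjusted p = 0.000486), whereas mean TPM was higher in kidney (35.6 against 24.9) and the ranges overlapped. Rdh16 gave 0.06 ± 0.13 in the fit and a higher TPM in kidney (29.5 against 10.2). A TPM is a share of a library, and the fit allows for the few very abundant transcripts of liver.

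The genes whose liver levels were most like those of Rdh16f2 were ranked by Pearson correlation of log2 CPM over the 10 libraries, among 11371 genes with a mean of at least 2 CPM. They were Ctse (r = 0.947), Amy1 (0.932), Mup1 (0.929), Dio1 (0.921) and Hyi (0.919). Ctse encodes cathepsin E, Amy1 an amylase, Mup1 a major urinary protein and Dio1 the deiodinase that activates thyroid hormone. Amy1 ran from 47.2 to 70.9 CPM after JQ1, from 91.6 to 138.8 CPM at recovery and from 154.9 to 174.2 CPM in vehicle, 3 ranges that did not overlap. Dio1 ran from 40.7 to 41.9, from 58.0 to 74.8 and from 70.9 to 78.2 CPM in that order, overlapping between recovery and vehicle. Sdr9c7 ranked 39 (r = 0.858) and Hsd17b6 ranked 80 (0.819), while Rdh7 (0.177) and Rdh16 (-0.630) were far down. These correlations carry the differences between the groups. With group means subtracted Rdh7 (0.738, rank 329) stood beside Sdr9c7 (0.725, rank 397) and Hsd17b6 (0.809, rank 112), and Rdh16 was at -0.825. Rbp4 (0.730, rank 371) and Aldh1a1 (0.666, rank 754), which lie outside the cluster, stood near them. Liver recovery library 2 held the most kidney RNA. There Rdh16f2, Rdh7, Sdr9c7 and Hsd17b6 were at 46.9%, 58.4%, 53.2% and 29.6% of the vehicle mean, and Rdh16 at 125.5%. The part of that library in these correlations was not tested. With group means subtracted the most alike were Dpm2 (0.945), Serp1 (0.930), Macroh2a1 (0.929), a gene with no symbol and Zbtb16 (0.927), none of which was in the first 5. In kidney the genes most alike, of 13159, included Akr1c19 (0.956), Gsto1 (0.912), Arrdc1 (0.903) and Id4 (0.903). With group means subtracted they were Ube3b (0.982), Fahd1 (0.965), Pdzk1ip1 (0.955), Ccdc93 (0.949) and Akr1c19 (0.947). No gene was in the first 5 of both organs.

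Beyond the 9 genes, 59 further genes of retinoid transport, storage, oxidation, clearance, reception and response were read as 6 lists. In kidney 41 were tested. Between JQ1 treatment and vehicle 4 fell and 0 rose, beside 4.13% of all genes called (2.73% lower), and the median log2 difference was -0.08, beside -0.01 over all genes. Stra6l, a paralogue of the retinol transporter Stra6, stood at 4.24, 4.19 and 3.53 CPM after JQ1 and at 8.63 to 11.6 CPM in vehicle, without overlap. It fell by 1.37 ± 0.16 on the log2 scale (edgeR adjusted p = 4.37e-05) and remained called without any 1 library.

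Among the oxidising enzymes 2 fell. Rdh10, the retinol dehydrogenase of embryonic retinoic acid synthesis (1 of 11 oxidoreductases tested), stood at 50.7 ± 7.49 CPM after JQ1 and 68.1 ± 7.70 CPM in vehicle, with ranges that just overlapped. It fell by 0.43 ± 0.10 (log2, SE, edgeR adjusted p = 0.0199). Aldh8a1 (1 of 5 in synthesis and clearance), a retinal dehydrogenase that also works in tryptophan breakdown, fell by 0.31 ± 0.08 (adjusted p = 0.0248). The calls of Rdh10 and Aldh8a1 were lost with 3 and 4 of the 7 libraries left out in turn (highest adjusted p 0.0887 for Rdh10 and 0.127 for Aldh8a1, each without JQ1 treatment library 1). None of the 5 ester and carotenoid genes, 6 receptors or 5 responsive genes tested passed. At an unadjusted p under 0.05 there were 0, 1 and 0 of them in that order, and DESeq2 called 0, 1 and 0.

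Against recovery, treated kidneys showed more. These groups also differ in age (10 and 16 weeks), with 1 vehicle kidney of the recovery age, and the part of age was not tested. Here fell and rose mean lower and higher after treatment than at recovery. Of the 41 genes 9 fell and 1 rose, beside 7.31% of all genes called (4.91% lower and 2.41% higher), with a median of -0.04 beside 0.01 over all genes. Stra6l fell by 1.46 ± 0.17, Rdh10 by 0.74 ± 0.11 and Aldh8a1 by 0.52 ± 0.08 (log2, SE), and these 3 remained called without any 1 of the 6 libraries. Recovery kidneys lay above vehicle without overlap for Rdh10 (84.1 to 85.3 CPM against 58.0 to 75.8 CPM) and Aldh8a1 (356.9 to 369.0 CPM against 278.3 to 347.4 CPM). The retinol transporter Stra6 fell by 1.76 ± 0.46 (adjusted p = 0.0255), from 0.854 to 1.63 CPM at recovery to 0.278 to 0.412 CPM after JQ1, on 4 to 28 reads. Pdk4, a kinase that restrains pyruvate oxidation, was the gene that rose (1.19 ± 0.26, adjusted p = 0.00791). Lpl, Dhrs4, Rxra and Tgm2 fell by 0.50, 0.39, 0.29 and 0.25. These calls were less firm. Of the 6 libraries left out in turn, 4 ended the call of Stra6 (highest adjusted p = 0.118) and of Lpl, 5 those of Rxra and Tgm2, and 1 those of Pdk4 and Dhrs4. Between recovery and vehicle 0 of 41 passed by edgeR, 7 had an unadjusted p under 0.05 and DESeq2 called 1.

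**Figure D4:**
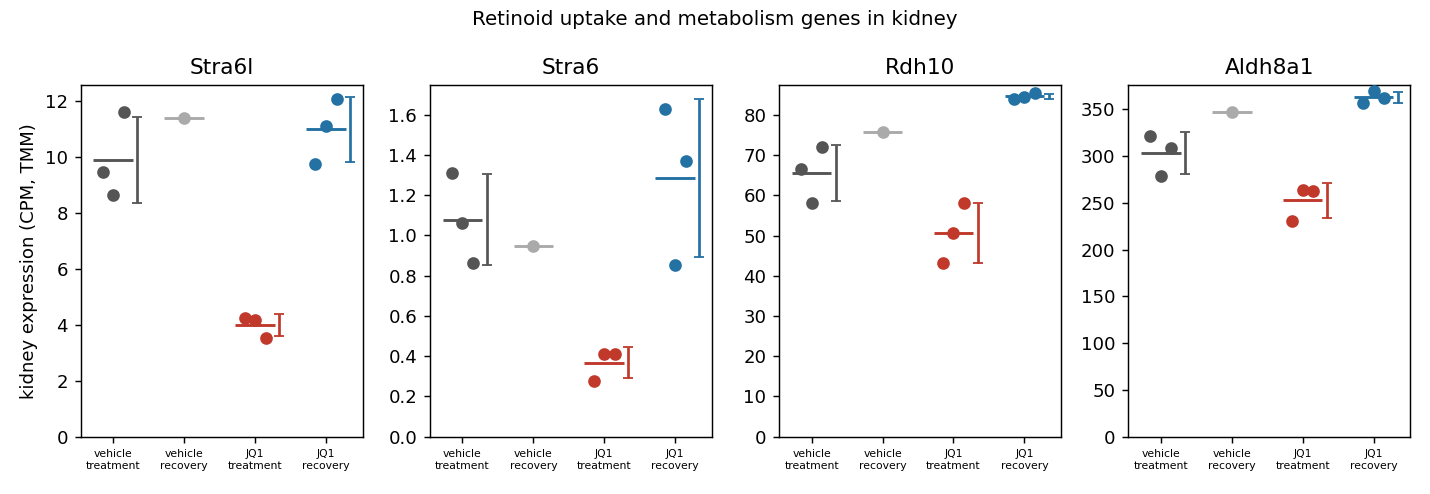
Kidney CPM (TMM, linear axes starting at 0) of Stra6l, Stra6, Rdh10 and Aldh8a1. Points are libraries, lines group means and bars ± 1 SD of 3 libraries. Stra6l is at 3.53 to 4.24 CPM in the JQ1 treatment libraries and at 8.63 CPM or more elsewhere, and Rdh10 and Aldh8a1 are highest in the JQ1 recovery libraries.

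In liver 42 of the 59 genes were tested. Between JQ1 treatment and vehicle 1 rose and 0 fell, beside 0.495% of all genes called, with a median of -0.04 beside 0.00 over all genes. At an unadjusted p under 0.05 there were 12 of the 42, and DESeq2 called 4. The riser was Aldh1a7, a close paralogue of Aldh1a1 with which it shares 279 stretches of 31 bases. It stood at 126.6, 138.9 and 147.0 CPM after JQ1 and at 87.3 to 98.2 CPM in vehicle, without overlap. Its log2 difference of 0.59 ± 0.12 (SE) had an edgeR adjusted p of 0.0433, and leaving out any 1 of the 7 libraries ended the call (highest adjusted p = 0.289, without JQ1 treatment library 2). Between treatment and recovery, groups that also differ in age, 4 were higher after treatment and 0 lower, beside 2.29% of all genes called. They were Ttr, the partner of Rbp4 in plasma, by 1.13 ± 0.25, the alcohol dehydrogenases Adh1 by 1.05 ± 0.18 and Adh5 by 0.70 ± 0.12, and Aldh1a7 by 0.85 ± 0.12. Adjusted p-values ran from 0.00765 (Aldh1a7) to 0.0303 (Ttr). Of the 6 libraries left out in turn, 4 ended the calls of Ttr (highest adjusted p = 0.145), Adh1 (0.0949) and Adh5 (0.0934), and 1 that of Aldh1a7 (0.0668). For Ttr, Adh1 and Adh5 the recovery range lay below vehicle and the treated range above it. Without the 2 recovery libraries with kidney RNA the differences were 0.80 for Ttr (adjusted p = 0.0043), 0.81 for Adh1 (0.00353), 0.64 for Aldh1a7 (0.0227) and 0.55 for Adh5 (0.0518), the last of which no longer passed. Between recovery and vehicle 0 of 42 passed by edgeR, 15 had an unadjusted p under 0.05 and DESeq2 called 6.

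Between the organs of vehicle animals, 36 of 46 retinoid genes tested passed, 27 lower and 9 higher in kidney, beside 61.8% of all genes called (29.6% lower and 32.1% higher), with a median log2 difference of -0.84 beside 0.06 over all genes. Of the 59 genes 41 were tested in the kidney fit and 42 in the liver fit. Some of the 46, Hsd17b6 among them, thus entered only through the organ where they were high and had to differ. The 6 genes with the largest difference were all lower in kidney. Ttr was at 2.18 ± 2.12 TPM in kidney and 4956 ± 483 TPM in liver (SD, n = 4 each). Hsd17b6 was at 0.0194 and 58.3 TPM, Adh4, an alcohol dehydrogenase, at 0.0345 and 33.1 TPM, Rarres1, named for its response to retinoids, at 0.202 and 4.14 TPM, and Rdh9 at 0.235 and 2.61 TPM. Cyp2c39, a retinoic acid hydroxylase, had no reads in vehicle kidney and 2.54 TPM in liver. In the test of an organ difference in the treatment effect 0 of 46 passed by edgeR, 6 had an unadjusted p under 0.05 and DESeq2 called 1.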

How the data were processed

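Bulk poly(A) RNA from kidney and liver was sequenced as single-end 75 bp reads in 20 libraries. Per the labels and the study's methods, the authors trimmed reads with fastp 0.20.1 and quantified transcripts with Salmon 1.10.0 against a mouse transcriptome named as mm10 (GENCODE vM30, a release built on a later genome, so gene positions come from other annotations of GRCm38). The reference is not from the DBA/2J strain. The deposited values were estimated counts, TPM (length-scaled transcript abundance) and effective lengths per transcript. Expected counts were summed per gene and rounded here.

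Each organ's 10 libraries were fitted in 3 groups (JQ1 treatment, JQ1 recovery, vehicle) with edgeR 4.0.16 (TMM, filterByExpr with a minimum count of 10 and total of 15, robust quasi-likelihood test) across all genes, with Benjamini-Hochberg adjustment and a threshold of 0.05. A joint fit of 20 libraries gave organ contrasts. Log2 CPM used a prior count of 2. The fits were tested on simulated data. Replicate numbers did not pair libraries (same-number correlations -0.132 to 0.102 in kidney and -0.0609 to 0.0021 in liver). Kidney and liver libraries with the same group and number, which the labels do not say are from 1 animal, did not deviate together either (-0.0673 to 0.0404 over 9 pairs), and the joint fit treats them as independent. The labels do not name animals, so p-values measure the spread between these libraries. No 2 libraries agreed within sampling noise.

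Members, gene lists and tests were chosen with earlier results of these data known. All 9 members are named. From the 6 retinoid lists each gene past the threshold was named, up to 6 per comparison by size of change, and Lpl, Dhrs4, Rxra and Tgm2 were named beyond that in the comparison that held 10. Some genes that these rules pick are not reported here, although the counts include them. Genes most like Rdh16f2 were the first 5 by correlation among those with a mean of at least 2 CPM. The protein sequences of the members were not used here.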

Additional observations from a re-analysis of the deposited data

Results flagged for a closer look

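A single value stood apart from the rest of its group, among 18 groups of 4 vehicle libraries tested for the 9 members (chance marks about 1 in 20). Rdh7 had 0 CPM in kidney vehicle treatment library 2, against 0.483 to 0.544 CPM in the other 3 vehicle kidneys, all on at most 12 reads.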

How the results depend on the processing

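Of 66 member results, 1272 refits gave 0 reversals of a call, 45 lost calls and 22 gained calls, and in 51 others an uncalled difference changed sign. Counts of members called moved as follows. With length-scaled TPM counts, kidney treatment against vehicle and against recovery and liver recovery against vehicle went to 0, and liver treatment against recovery to 1. With only the compared groups in the fit, kidney treatment against vehicle went to 0, liver treatment against vehicle to 2, and liver recovery against vehicle and liver treatment against recovery to 0. DESeq2 1.42.0 gave 2 for liver treatment against vehicle, 5 for liver treatment against recovery and 1 for the organ difference. Without the filter on low counts, liver treatment against recovery gave 1. With vehicle of the same age only, liver recovery against vehicle gave 0. With the replicate block that comparison also gave 0, and the replicate numbers do not pair the libraries; the block changed no other count of members within an organ. With the group and number that a kidney and a liver library share as a replicate block across organs, a fit chosen after seeing the data, 0 members passed the organ difference and 8 the organ contrast in vehicle, as without it. Without both liver recovery libraries that held kidney RNA, an alternative chosen after seeing the data, liver treatment against vehicle gave 2 and liver recovery against vehicle 0. Scaling by RLE size factors moved no count. With 1 library left out at a time, the counts ran from 0 to 1 for kidney treatment against vehicle and against recovery and for the organ difference, from 1 to 2 for liver treatment against vehicle, and from 0 to 5 for liver recovery against vehicle and for liver treatment against recovery. Liver Rdh16f2 after treatment ran from -1.72 to -1.57 over 18 alternatives, and the cause of the other moves was not tested. Depth limited the kidney values of Rdh7, Sdr9c7 and Cyp26a1, which rested on at most 16, 8 and 13 reads per library.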

Other observations

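Liver Rbp4 reads fell on a pair of transcripts, Rbp4-202 with 68.4% and Rbp4-201 with 31.6% of the reads over the 10 liver libraries, whereas in kidney the shares were 49.8% and 50.2%. Salmon divides reads that fit both, so this is given as a value without a test. In kidney, markers of other tissues also moved with JQ1: of the 5 leukocyte markers tested, Cd74, Csf1r and H2-Eb1 fell between treatment and vehicle and 0 rose, beside 4.13% of all genes called. The sum of the 8 leukocyte markers did not fall as a whole: it was 389.7, 58.9 and 98.4 CPM in treated kidneys and 87.5 to 163.7 CPM in vehicle. Of the 5 red cell markers tested, 3 rose and 0 fell, and their sum was 9349 to 12960 CPM after treatment and 4601 to 8021 CPM in vehicle. These lists were read beside the retinoid genes of kidney, and their part in those genes' values was not tested.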
